A study of Mus musculus with 24 samples.

Results

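The 10 resident macrophage genes followed here through the ageing of 4 mouse organs are part of 22911 gene symbols to which array probes could be matched. They were Adgre1, Csf1r, Clec4f, Timd4, Cd5l, Marco, Mrc1, Cd163, Lyve1 and Folr2. Each was found through the RefSeq accession that the array design gives its probe, and where several probes read the same gene the brightest within the tissue was used. RNA came from white adipose tissue (WAT), kidney, lung and liver of male C57BL/6J mice aged 10 weeks (10W) or 90 weeks (90W), with 3 mice in each of the 8 groups and 1 single-colour Agilent array per sample. No treatment or transgene was recorded for any group, so age was the only recorded difference within a tissue, and the aged livers carry the numbers 1, 2 and 4. Both ages of a tissue lay on the same slide and each tissue had a slide of its own, so a difference in level between tissues cannot be told apart from a difference between slides. Whether 1 mouse gave several tissues is not stated in the labels.

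Macrophages settle in almost every organ, where they clear dead cells and debris and take up the character of their surroundings. Many of them depend on signals through the receptor Csf1r, and Adgre1 encodes the surface protein F4/80 by which mouse macrophages are commonly identified. Liver macrophages, the Kupffer cells, line the sinusoids and are marked by the lectin Clec4f, and long-settled Kupffer cells carry Timd4, a receptor for phosphatidylserine on dying cells. Cd5l is a secreted protein that is abundant in Kupffer cells, and Marco is a scavenger receptor shared by Kupffer cells and the alveolar macrophages of the lung. The mannose receptor Mrc1, the haemoglobin scavenger receptor Cd163, the hyaluronan receptor Lyve1 and the folate receptor Folr2 mark macrophages along vessels and in the fat, and of these Lyve1 is also carried by lymphatic and liver sinusoidal endothelium and Mrc1 by liver sinusoidal endothelium.

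Proximal promoters were examined as a description of the members. Promoters of 7 of the 10 members were read from the RefSeq promoter table, with any member entry on 1 chromosome left out. Adgre1, Csf1r and Lyve1 were not read, so the counts below do not cover them. The 250 bases before the start site were searched on either strand for GAGGAAG, a core of the motif bound by the macrophage factor PU.1. These letters were found in 3 of the 7 (Cd5l, Marco and Mrc1). The letters TGCTGAC, the core bound by MAF proteins, were found in 1 (Timd4). Over all 32851 promoters of that length, with no chromosome left out, 10.6% held the PU.1 letters and 3.81% the MAF letters. Those shares are per promoter, whereas the members are counted as genes and Folr2 had more than 1 promoter. No match overlapped another. The 4 promoters with a match are shown 5′ to 3′ on the strand of the gene, in GRCm38.p6, with the matches in capitals (CTTCCTC and GTCAGCA are the same letters read on the other strand). Cd5l lies on the + strand at chr3:87357631-87357880 with its match starting 67 bases before the start site, Marco on the - strand at chr1:120505025-120505274 with the match at 146, Mrc1 on the + strand at chr2:14229164-14229413 with matches at 168 and 36, and Timd4 on the + strand at chr11:46810549-46810798 with the match at 45.
Cd5l: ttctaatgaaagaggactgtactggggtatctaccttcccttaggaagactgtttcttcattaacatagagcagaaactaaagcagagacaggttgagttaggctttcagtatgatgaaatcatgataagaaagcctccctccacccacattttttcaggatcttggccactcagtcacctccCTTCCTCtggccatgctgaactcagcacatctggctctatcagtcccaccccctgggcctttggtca
Marco: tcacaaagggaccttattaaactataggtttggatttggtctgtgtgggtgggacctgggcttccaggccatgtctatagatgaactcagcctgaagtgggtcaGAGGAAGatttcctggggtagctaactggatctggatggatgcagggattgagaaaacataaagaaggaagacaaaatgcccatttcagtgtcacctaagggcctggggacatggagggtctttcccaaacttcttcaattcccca
Mrc1: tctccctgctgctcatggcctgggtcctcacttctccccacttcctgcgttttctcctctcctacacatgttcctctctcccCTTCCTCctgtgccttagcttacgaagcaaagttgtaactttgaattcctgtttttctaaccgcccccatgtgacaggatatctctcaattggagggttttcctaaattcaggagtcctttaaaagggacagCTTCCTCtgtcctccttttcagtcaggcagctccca
Timd4: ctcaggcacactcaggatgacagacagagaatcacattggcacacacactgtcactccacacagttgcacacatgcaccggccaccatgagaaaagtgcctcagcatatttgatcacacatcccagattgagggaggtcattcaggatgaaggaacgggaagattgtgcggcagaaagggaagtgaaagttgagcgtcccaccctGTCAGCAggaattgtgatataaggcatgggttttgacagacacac
A match describes letters in this window only. Marco and Timd4 hold a match but were called in no tissue, and Clec4f, Cd163 and Folr2 were called without one. Whether the letters bear on the changes with age was not tested.

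The labelled tissues carried their own markers. On a log2 scale relative to each array's 75th percentile, which is the scale of every level below, the summed level of 5 hepatocyte genes was between 10.9 and 11.4 in the livers, that of 5 lung epithelial genes between 10.4 and 10.9 in the lungs, that of 5 kidney epithelial genes between 7.56 and 9.43 in the kidneys and that of 5 adipocyte genes between 8.04 and 9.53 in WAT. Aged lung 1 stood apart with a hepatocyte sum of 7.08, where the young lungs lay between -2.69 and -0.21, and it had 59.5% of its probes well above background, where the other lungs had 66.0% or more. Across the 24 arrays between 58.6% and 71.1% of probes cleared background well, and saturated spots were absent. With 3 arrays a group, an exact permutation test of a single gene cannot give a p below 0.1, so calls rest on limma's moderated test across all features of a tissue.

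Most members rose with age in liver and kidney. In liver 7 of the 10 were higher at 90W at an adjusted p under 0.05, against 10.5% of all features tested, and none was lower, against 17% of all features. In kidney 8 members could be tested, of which 6 were higher, against 20.6%, and 1 was lower, against 42.6%. WAT had 1 member higher, against 2.01%, and none lower, against 0.579%, while in lung none was called in either direction, against 2.72% higher and 2.89% lower. At an unadjusted p under 0.05 in limma there were 5 members in WAT and 3 in lung, but the share of all features at that p was not computed. The methods' t-test, the plain comparison of 2 groups that the study names, called none in lung with or without adjustment. In liver the calls of Adgre1 and Csf1r held in every alternative tried, and those of Clec4f, Cd5l, Mrc1, Lyve1 and Folr2 were each lost in at least 1 of them. The 6 rises in kidney held in every alternative tried. Reading Csf1r from its dimmer probe alone, which changed by 0.34 in liver and 0.22 in kidney, was not among these alternatives. The median change of the members that could be tested was 1.56 in liver, 0.69 in lung, 3.66 in kidney (2.78 with Lyve1 at the bound given below) and 1.40 in WAT, where that of all features tested was -0.20, -0.08, -0.23 and -0.05. All 3 aged arrays lay above all 3 young arrays for 7 members in liver, 2 in lung, 6 in kidney and 5 in WAT, where 16.8%, 11.6%, 23.1% and 13.7% of all features did. Of 40 combinations of member and tissue, 37 were tested, and 3 were not because too few arrays were well above background (Clec4f in kidney and WAT, Timd4 in kidney). The counts over tested members are descriptions, since Clec4f in lung and Lyve1 in kidney passed that filter through the aged arrays alone. In whole tissue a change in the number of macrophages and a change in RNA per macrophage cannot be told apart.

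**Figure D1:**
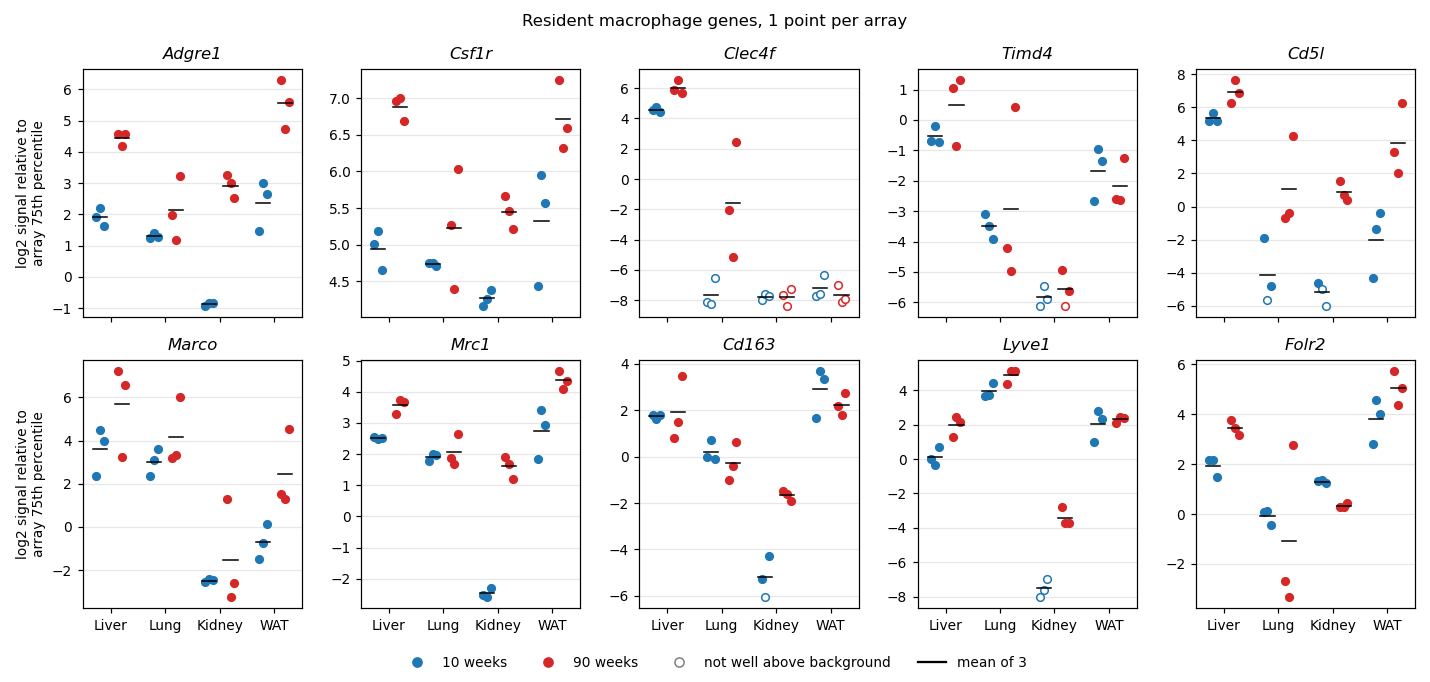
Level of each member (log2 signal, with the 75th percentile of the array at 0) in every array of the 4 tissues, 10 weeks in blue and 90 weeks in red, open points for signals not well above background and bars for the mean of 3. In kidney the aged points of Adgre1, Cd5l, Mrc1, Cd163 and Lyve1 sit above all the young points, and those of Folr2 sit below.

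The tissues differed in which members were bright. In young mice Clec4f, Timd4, Cd5l and Marco had their highest mean in liver, Adgre1, Csf1r, Mrc1, Cd163 and Folr2 in WAT, and Lyve1 in lung, and all but Folr2 and Clec4f had their lowest in kidney. Clec4f was not well above background on any young array of WAT, lung or kidney, which gives those 3 no order. The young arrays of WAT and liver overlapped for Adgre1, Csf1r, Mrc1 and Cd163, those of liver and lung overlapped for Csf1r and Marco, and those of WAT, lung and kidney overlapped in turn for Cd5l, so the order of those neighbours is within their spread. At 90W Csf1r was highest in liver, though its liver and WAT arrays overlapped. Clec4f, the marker most particular to Kupffer cells, was well above background on 0 of 12 kidney and WAT arrays and on all 6 liver arrays.

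**Figure D2:**
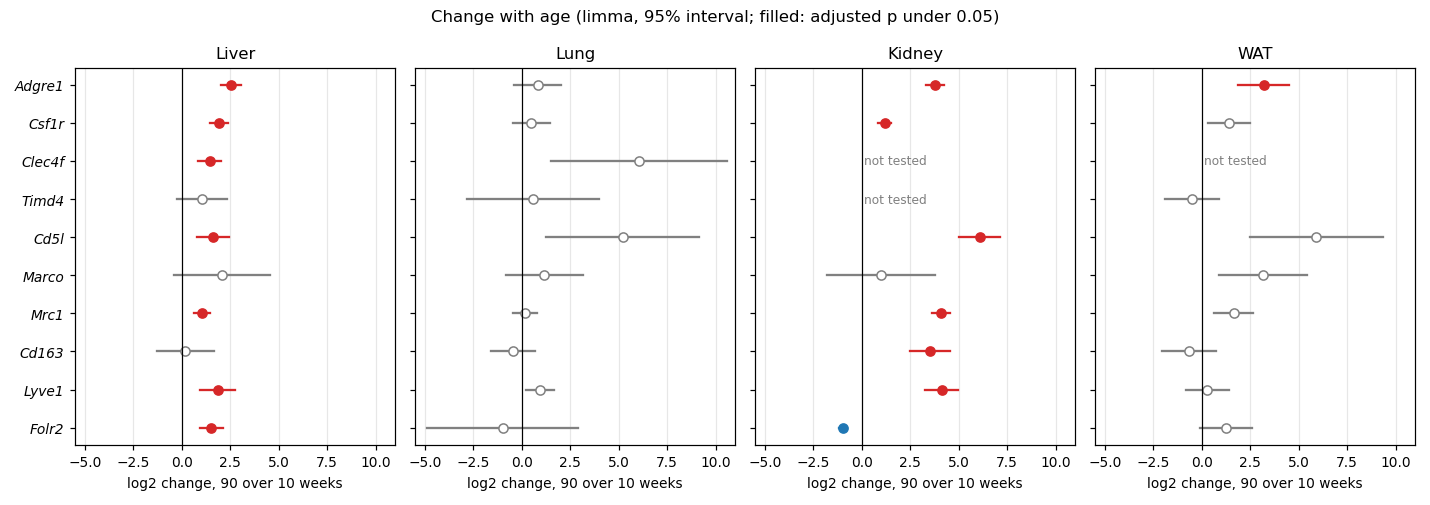
Log2 change from 10 to 90 weeks of each member in each tissue with its 95% interval from limma, filled where the adjusted p was under 0.05, red for higher and blue for lower. Liver and kidney hold filled points for most members, WAT only for Adgre1, and lung for none, and the points of Clec4f in lung and Lyve1 in kidney are drawn from young signals not well above background.

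Adgre1 (probe A_51_P251768), the F4/80 gene, was the member called in the most tissues, in 3 of 4. The young livers measured 1.90, 2.21 and 1.63 and the aged livers 4.57, 4.20 and 4.59. No aged liver came near the young range, and the rise was 2.54 ± 0.21 (SE, n = 3 and 3), a 5.81-fold increase with a 95% interval of 4.12 to 8.19 and an adjusted p of 0.00155. The young kidneys measured -0.93, -0.84 and -0.84 and the aged kidneys 3.25, 3.0 and 2.51. That rise of 3.79 ± 0.19 was 13.8-fold (10.1 to 19.0), with an adjusted p of 5.7e-05. The young WAT samples measured 1.46, 3.01 and 2.66 and the aged ones 6.31, 4.74 and 5.61. Every aged WAT sample was again above every young one, and the rise of 3.18 ± 0.55 was 9.05-fold (3.60 to 22.7), at an adjusted p of 0.0448. The WAT call was lost without any 1 of the 6 arrays (without young 1, 2 or 3 or aged 1, 2 or 3 the adjusted p lay between 0.0596 and 0.147 and the change between 2.72 and 3.58). In lung the young arrays measured 1.25, 1.42 and 1.29 and the aged arrays 1.98, 1.17 and 3.24. Aged lung 2 was below the young range and aged lung 3 was far above it, and the change of 0.81 ± 0.50 was not called (adjusted p = 0.339). A dimmer Adgre1 probe was not well above background on any young liver or kidney array and on 1 young and 1 aged lung alone, so it could not check the size of those changes.

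Csf1r (probe A_55_P2025078), the receptor for CSF1 and IL-34, rose in liver and kidney. At 10W the livers read 5.01, 5.18 and 4.66 and the aged livers 6.97, 7.0 and 6.68, an increase of 1.93 ± 0.20 that was 3.82-fold (2.77 to 5.26), with an adjusted p of 0.00237. The young kidneys measured 4.17, 4.26 and 4.39 and the aged kidneys 5.67, 5.46 and 5.22. The groups were apart in both organs, and the kidney rise of 1.18 ± 0.13 was 2.26-fold (1.80 to 2.84; adjusted p = 0.000724). In WAT the young samples measured 4.45, 5.95 and 5.57 and the aged ones 7.25, 6.32 and 6.59. The ranges did not overlap, yet the change of 1.40 ± 0.45 was not called (adjusted p = 0.175), with young WAT 1 far below the other young samples. The young lung arrays lay at 4.76, 4.76 and 4.71 and the aged arrays at 5.27, 4.4 and 6.03, on both sides of the young values, with a change of 0.49 ± 0.39 (adjusted p = 0.449). The 2 Csf1r probes disagreed in size, since the dimmer changed by 0.34 in liver, 0.22 in kidney, 0.78 in WAT and 0.41 in lung. On the dimmer probe the ages overlapped in liver, kidney and lung but not in WAT, and its change was not tested on its own. The RNA position each probe reads was not used here.

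Among the Kupffer cell genes, Clec4f (probe A_51_P271865) rose in liver. Liver levels at 10W were 4.58, 4.72 and 4.45 and in aged livers 5.87, 6.54 and 5.65, with a gap between the ages. The rise of 1.43 ± 0.25 was 2.70-fold (1.79 to 4.08), with an adjusted p of 0.0110. In lungs the 10W arrays read -8.10, -8.26 and -6.54, none of them well above background, and the aged arrays -2.03, -5.14 and 2.41, all well above it. The mean was -7.63 at 10W and -1.59 at 90W, which bounds the increase of the mean in these lungs at no less than 19.0-fold. That is no limit for other mice, and the adjusted p was 0.110. Without aged lung 2 the bound was 65.0-fold and the change passed (adjusted p = 0.0461), and without aged lung 3 the bound was 4.75-fold and it did not (adjusted p = 0.106). In kidney and WAT the 12 arrays lay between -8.36 and -6.35, none well above background.

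Timd4 (probe A_52_P609868) was not called in any tissue in which it was tested. In young livers it stood at -0.68, -0.20 and -0.74 and in aged livers 1.06, -0.87 and 1.32. Aged livers 1 and 4 were above every young liver and aged liver 2 was below them all, and the change of 1.04 ± 0.55 had an adjusted p of 0.187. Without aged liver 2 the change was 1.73 and passed (adjusted p = 0.00753). The young WAT samples measured -2.68, -0.97 and -1.35 and the aged ones -2.62, -2.65 and -1.25, which overlapped (change -0.51 ± 0.58, adjusted p = 0.668). Among lungs the young arrays measured -3.10, -3.48 and -3.92 and the aged ones -4.22, -4.98 and 0.42. Aged lung 3 alone was above the young lungs and the other aged lungs were below them (change 0.57 ± 1.39, adjusted p = 0.815). In kidney 2 of the 3 aged and none of the young arrays were well above background.

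Cd5l (probe A_51_P205779), which encodes a secreted inhibitor of macrophage apoptosis, had the largest change of any member in kidney. The young kidneys read -4.63, -4.97 and -6.01, of which 1 was well above background, and the aged kidneys 1.54, 0.67 and 0.39. The rise of 6.07 ± 0.44 was 67.3-fold (32.0 to 141), with an adjusted p of 0.000184, and the fold rests on young signals near background. Livers of 10W mice gave 5.19, 5.65 and 5.17 and the aged livers 6.29, 7.67 and 6.88, all above the young. The liver rise of 1.61 ± 0.35 was 3.05-fold (1.72 to 5.43; adjusted p = 0.0198), and this call was lost without young liver 1 (adjusted p = 0.0679) or young liver 3 (adjusted p = 0.0546). In WAT the 10W samples measured -4.36, -1.37 and -0.41 and the aged ones 3.28, 2.03 and 6.30. The ages did not overlap, but the change of 5.91 ± 1.41 was not called (adjusted p = 0.0967). In lung the young arrays read -1.93, -5.68 and -4.80 and the aged ones -0.68, -0.41 and 4.29. Again every aged array was above the young ones, with a change of 5.20 ± 1.61 that was not called (adjusted p = 0.112).

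Marco (probe A_51_P371750), the scavenger receptor of Kupffer cells and alveolar macrophages, was not called in any tissue. The 3 young livers were at 2.38, 4.51 and 3.98 and the aged livers 7.23, 3.26 and 6.59. Aged liver 2, which had been below the young livers for Timd4, lay inside the young range while the other aged livers were above it, and the change of 2.07 ± 1.06 had an adjusted p of 0.172. Without aged liver 2 the change was 3.29 and passed (adjusted p = 0.0197). The young lung arrays measured 2.38, 3.09 and 3.61 and the aged ones 3.19, 3.34 and 6.02, with aged lung 3 alone outside the young range (change 1.16 ± 0.81, adjusted p = 0.393). In kidney the young arrays measured -2.57, -2.43 and -2.48 and the aged ones 1.30, -3.24 and -2.61. Only aged kidney 1 was above the young, and without it the change turned from 0.98 to -0.43 (neither was called). In WAT the young samples measured -1.51, -0.74 and 0.13 and the aged ones 1.54, 1.28 and 4.52, which did not overlap, with a change of 3.15 ± 0.94 (adjusted p = 0.150) that was 2.11 without aged WAT 3 (adjusted p = 0.149).

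Mrc1 (probe A_55_P1988108), the mannose receptor, rose in liver and, by more, in kidney. The young kidneys measured -2.51, -2.58 and -2.29 and the aged kidneys 1.91, 1.69 and 1.21, a rise of 4.07 ± 0.19 that was 16.7-fold (12.1 to 23.2; adjusted p = 5.14e-05). Young liver arrays gave 2.56, 2.47 and 2.53 and the aged livers 3.28, 3.75 and 3.67. Liver groups were tight and separate, and the rise of 1.05 ± 0.18 was 2.07-fold (1.55 to 2.76; adjusted p = 0.00960). The young WAT samples measured 1.86, 3.40 and 2.95 and the aged ones 4.67, 4.09 and 4.35, which did not overlap (change 1.64 ± 0.42, adjusted p = 0.111). In lungs the 10W arrays measured 1.78, 1.99 and 1.96 and the aged ones 1.88, 1.68 and 2.64, around the same level (change 0.15 ± 0.26, with a 95% fold interval of 0.719 to 1.72, adjusted p = 0.726).

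Cd163 (probe A_51_P231042), the receptor for haemoglobin bound to haptoglobin, was called only in kidney among the tissues tested. The young kidneys read -5.29, -6.04 and -4.28, of which 2 were well above background, and the aged kidneys -1.49, -1.62 and -1.91. The rise of 3.53 ± 0.43 was 11.5-fold (5.59 to 23.8; adjusted p = 0.000884). A dimmer Cd163 probe was at background on all 6 kidney arrays, so it could not check that change. Its levels in young livers were 1.80, 1.61 and 1.79 and in aged livers 0.79, 1.49 and 3.49. Aged livers 1 and 2 were below the young and aged liver 4 was above them, so that the mean change of 0.19 ± 0.63 was not called (adjusted p = 0.838) and turned to -0.59 without aged liver 4. In WAT the 10W samples measured 1.66, 3.70 and 3.33 and the aged ones 2.18, 1.79 and 2.73 (change -0.66 ± 0.57, adjusted p = 0.561). Among lungs the young arrays measured -0.01, 0.71 and -0.12 and the aged ones -1.02, -0.40 and 0.64 (change -0.46 ± 0.46, adjusted p = 0.548). In both of those tissues the ages overlapped.

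Lyve1 (probe A_52_P686785), the hyaluronan receptor, rose in liver and kidney. Levels in the young livers were -0.02, -0.36 and 0.73 and in aged livers 1.31, 2.44 and 2.16, a rise of 1.85 ± 0.38 that was 3.62-fold (1.94 to 6.73; adjusted p = 0.0164). It was lost without young liver 1 (adjusted p = 0.0587) or young liver 2 (adjusted p = 0.0603). The young kidneys read -8.00, -7.59 and -6.97, none well above background, and the aged kidneys -2.78, -3.73 and -3.73, all well above it. The means were -7.52 and -3.41 (adjusted p = 0.000326), which bounds the kidney rise at no less than 4.08-fold. The young lungs measured 3.65, 3.73 and 4.43 and the aged lungs 4.37, 5.09 and 5.13, with aged lung 1 just inside the young range (change 0.93 ± 0.30, adjusted p = 0.119). In WAT the young samples measured 1.01, 2.79 and 2.33 and the aged ones 2.12, 2.45 and 2.39, inside the young range (change 0.28 ± 0.46, adjusted p = 0.774). Endothelial markers were measured beside it. Of 6 lymphatic endothelial genes 4 were higher and 2 lower in kidney, against 20.6% and 42.6% of all features. Their summed level there was 2.02 to 2.35 in the young and 3.59 to 4.89 in the aged. The 4 became 2 without young kidney 1 or aged kidney 1 and 1 without young kidney 2 or aged kidney 2. In liver 1 of those 6 and 3 of 6 sinusoidal endothelial genes were higher, against 10.5% of all features. The 3 were Fcgr2b (by 1.01), Gpr182 (by 0.64) and Stab2 (by 0.53), though 1 or 2 of them were left without any 1 array. The part of these endothelial cells in the Lyve1 change was not tested, nor was that of the sinusoidal cells, which also carry Mrc1, in the Mrc1 change in liver.

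Folr2 (probe A_51_P162671), the folate receptor of perivascular and fat macrophages, was the only member called in opposite directions in 2 tissues. In young livers the values were 2.18, 2.15 and 1.5 and in aged livers 3.75, 3.45 and 3.16, a rise of 1.51 ± 0.25 that was 2.85-fold (1.89 to 4.30; adjusted p = 0.00928). The young kidneys measured 1.32, 1.35 and 1.24 and the aged kidneys 0.27, 0.28 and 0.43. All aged kidneys were below all young ones, by a narrow and even margin, and the level fell by 0.98 ± 0.08 on the log2 scale, which was 1.97-fold (1.71 to 2.27; adjusted p = 0.000314). The call was lost when all 24 arrays shared 1 estimate of spread (adjusted p = 0.442). The young WAT samples measured 2.82, 4.57 and 4.03 and the aged ones 5.74, 4.36 and 5.07, which overlapped (change 1.25 ± 0.55, adjusted p = 0.281). In lung the young arrays measured 0.07, 0.12 and -0.45 and the aged ones -2.70, -3.32 and 2.78. Aged lungs 1 and 2 were far below the young and aged lung 3 far above, with a mean change of -0.99 ± 1.59 (adjusted p = 0.715). The opposite calls did not make Folr2 pass the test of a difference between tissues (F test over all 24 arrays, adjusted p = 0.257).

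Aged lung 3 stood apart in these genes. It held the highest level among the 6 lungs of 9 members, all but Cd163, and its summed level of 16 general macrophage genes was 8.94, where the other lungs lay between 7.95 and 8.38. Without it the lung changes were 0.26 for Adgre1, 0.10 for Csf1r, -1.1 for Timd4, 3.59 for Cd5l, 0.24 for Marco, -0.13 for Mrc1, -0.91 for Cd163 and 0.80 for Lyve1, none of them called. Folr2 then fell by 2.92 on the log2 scale and was called (adjusted p = 0.0243). The hepatocyte sum was 7.08 in aged lung 1, 1.35 in aged lung 2 and -1.14 in aged lung 3. All 3 aged lungs were above the young lungs in Clec4f and Cd5l, with aged lung 1 at -2.03 and -0.68. The part of the hepatocyte signal in these values was not tested. Adipocyte genes were lower in all 3 aged lungs, with sums from -0.09 to 0.91 against 2.57 to 3.79 in the young, and their part in the changes was not tested. In the same way aged liver 2, low in Timd4 and Marco, had a summed level of 6 neutrophil genes of 10.6, where the other aged livers had 4.15 and 4.71 and the young ones 0.98 to 2.85. Aged WAT 3, which held the highest WAT levels of Marco and Cd5l, had a neutrophil sum of 9.86, where the other aged WAT samples had 2.31 and 6.19 and the young ones 0.97 to 6.56, and without it the Cd5l change in WAT was 4.70 (adjusted p = 0.176). Aged lung 2 had a sum of 10.4, where the other aged lungs had 7.26 and 8.21 and the young ones 5.65 to 7.02. The part of these cells in those values was not tested.

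**Figure D3:**
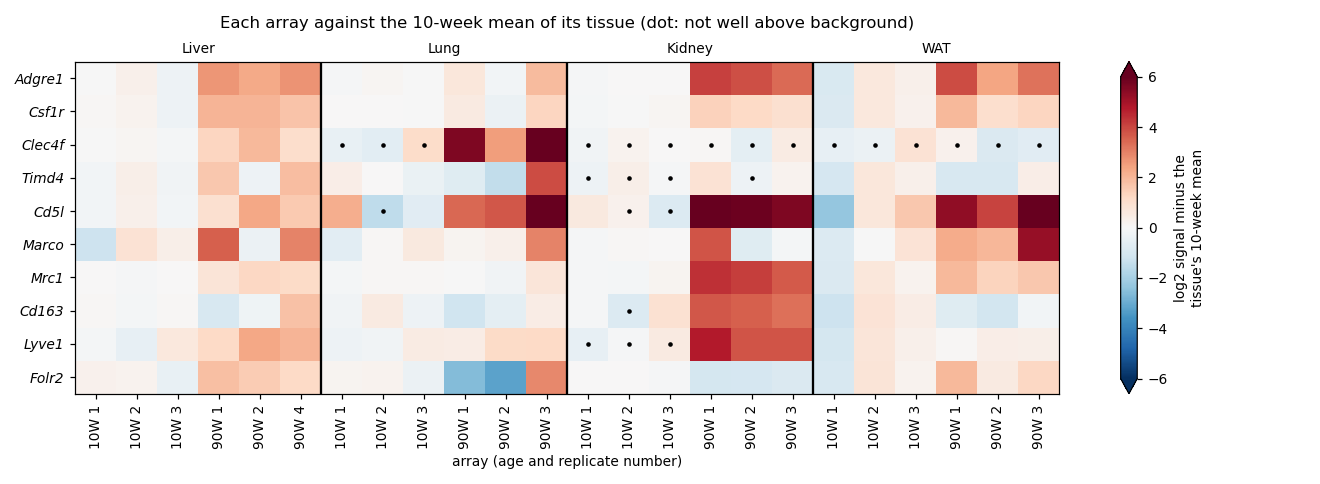
Each of the 24 arrays as its log2 difference from the 10-week mean of its tissue, red above and blue below, with a dot where the signal was not well above background. Aged lung 3 is the reddest lung column, young WAT 1 is pale blue, and all 3 aged kidneys are red in 6 members and pale blue in Folr2.

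Whether the change with age differed between tissues was tested on all 24 arrays with 1 probe per gene. For 5 of the 10 members it did, where 31.2% of 34154 features passed. Lyve1 and Clec4f, among the 5, were compared in part on signals at background. Mrc1, Cd163 and Adgre1 alone would lie near the share of all features, so the count is a description. Mrc1 passed at an adjusted p of 4.42e-05, and its change in kidney exceeded that in liver by 3.02 ± 0.43 (adjusted p = 0.000216), that in lung by 3.91 ± 0.43 (adjusted p = 2.08e-05) and that in WAT by 2.43 ± 0.43 (adjusted p = 0.000964). Lyve1 passed at 0.000860, in a test that used young kidney signals not well above background, so the sizes of its differences from kidney are not given. Cd163 passed at 0.00394, with a kidney change above that of liver by 3.34, of lung by 3.98 and of WAT by 4.19. Kidney thus exceeded each other tissue in Mrc1 and Cd163 at an adjusted p under 0.05 for every pair. Adgre1 passed at 0.00787, its lung change being smaller than that of kidney by 2.98 ± 0.63 (adjusted p = 0.00332) and than that of WAT by 2.37 ± 0.63 (adjusted p = 0.0497). Clec4f passed at 0.0133 through the larger lung change, in a test that used kidney and WAT signals at background. Csf1r, Timd4, Cd5l, Marco and Folr2 did not pass, with adjusted p from 0.146 to 0.768, which does not show that their changes were alike. The 5 became 3 without the arrays numbered 10W 2, 10W 3 or 90W 1 of every tissue. Clec4f was lost without 10W 1 (adjusted p = 0.0676), 10W 2 (0.0958), 10W 3 (0.0573) or 90W 1 (0.0594), Adgre1 without 10W 3 (0.0502) or 90W 1 (0.0614) and Cd163 without 10W 2 (0.0530). Without 90W 3 Csf1r (adjusted p = 0.0496) and Folr2 (adjusted p = 0.000337) passed as well.

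Each member was also read against Csf1r on the same array, a comparison that does not depend on how arrays were scaled and shows only unequal change. In kidney 5 members rose more than Csf1r, where 6.86% of all features did: Cd5l by 4.90, Mrc1 by 2.89, Adgre1 by 2.61, Cd163 by 2.35, and Lyve1 by an amount its young signals do not fix. Folr2 moved below it by 2.15, in the direction of 84.1% of all features, and Marco (-0.20) did not pass. In liver Cd163 (-1.74 ± 0.58, adjusted p = 0.0122) and Mrc1 (-0.88 ± 0.30, adjusted p = 0.0126) changed less than Csf1r, as 92.1% of features did, and no member changed more, where 1.25% did. In WAT Cd5l (4.51 ± 0.82, adjusted p = 0.00039) and Adgre1 (1.78 ± 0.63, adjusted p = 0.0388) rose more, against 1.42% of features, and Timd4 (-1.91) and Cd163 (-2.06) changed less, against 31.8%. In lung Cd5l (4.71) and Clec4f, again read against young signals at background, rose more, against 0.999%, and none less, against 1.17%, but that fit gave every feature the same standard error of 0.57, and the methods' t-test called 0 of the 9. All features here share the spread of Csf1r, which limma treats as independent between them. Its degrees of freedom were 33.0 in WAT, 13.4 in kidney and 12.5 in liver, against 6.11, 6.17 and 7.03 in the fit of levels. These p-values may thus be too small, and in WAT too the methods' t-test called 0 members after adjustment. The WAT count of 4 became 1 without young WAT 3 or aged WAT 1, 2 or 3, and the liver count of 2 became 1 without young liver 3 and 5 without aged liver 2. The liver values also depended on the Csf1r probe. Against the dimmer probe, which changed by only 0.34 in liver, Clec4f (1.1), Cd5l (1.27), Folr2 (1.17), Lyve1 (1.52), Mrc1 (0.71) and Timd4 (0.71) changed by more than Csf1r rather than less.

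Genes shared by most macrophages were called most often in liver and kidney. The counts of this and the later lists stand beside the shares of all features called. In liver 10.5% were higher and 17% lower, and in kidney 20.6% and 42.6%. In lung the shares were 2.72% and 2.89%, and in WAT 2.01% and 0.579%. Of 16 general macrophage genes, such as the complement components C1qa, C1qb and C1qc and the lysosomal genes Cd68, Ctss and Lyz2, 15 were higher in liver with a median of 2.15 (Lyz2 by 2.76, Cd14 by 2.61, Cx3cr1 by 2.52). In kidney 13 were higher with a median of 3.61 (Lyz2 by 5.51, Fcgr1 by 4.27, Ctss by 3.98), and this stayed 13 without any 1 array. WAT had 6 higher and a median of 2.22 (Mpeg1 by 3.81, Cd68 by 3.72), which became 3, 1, 0, 0, 2 and 0 without young 1, 2 and 3 and aged 1, 2 and 3. Lung had 2 higher and a median of 0.52 (Tyrobp by 1.11, Laptm5 by 1.08), which became 0 without young lung 1 or 2, 1 without young lung 3 or aged lung 3 and 3 without aged lung 2. None was lower anywhere. The summed level was 6.68 to 6.98 in young and 8.47 to 9.14 in aged livers, 7.95 to 8.24 and 8.04 to 8.94 in lungs, 7.44 to 7.47 and 8.44 to 8.76 in kidneys, and 6.59 to 7.95 and 9.25 to 10.2 in WAT.

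Around Csf1r itself, 10 genes of its axis were followed. In liver 9 were higher (median 1.51), among them the ligands Csf1 (1.08) and Il34 (0.91), the factor Spi1, which encodes PU.1 (2.26), and Runx1 (2.62). That count was 5 without young liver 1 or 2. In kidney 9 were higher (median 2.0), with Csf1 at 2.54, Il34 at 2.06 and Runx1 at 4.02, and Maf was lower (-0.57). Spi1, counted among the 9, was not well above background on any young kidney. It passed the filter there through the aged arrays alone, with a rise of at least 7.28-fold. Lung had 2 higher (Spi1 by 1.13, Csf2rb by 1.03; median 0.36), of which 0 were left without any young lung or aged lung 2 or 3 and 1 without aged lung 1. WAT had 1 higher, Irf8 by 2.03 (median 1.30), lost without young WAT 1 or 3 or aged WAT 1 or 3.

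Genes that mark the macrophages of 1 organ were also called in other organs. Of 8 further Kupffer cell genes, 4 were higher in liver (Vsig4 by 2.5, Hmox1 by 2.0, Spic by 1.88, Il18bp by 1.31; median 1.02). In WAT 4 were higher as well (Vsig4 by 5.76, Hmox1 by 2.96, Spic by 2.56, Slc40a1 by 2.05; median 1.28), which became 2 without young WAT 1, 0 without young WAT 2 or 3 and 1 without any aged WAT. In kidney 5 of 7 were higher (Spic at least 8.77-fold, adjusted p = 0.000647, and C6 by 1.83 on the log2 scale) and the nuclear receptor gene Nr1h3 was lower (-0.79; median 0.77), and in lung 2 were higher (Slc40a1 by 1.40, Il18bp by 0.92; median 0.73), of which 1 was left without aged lung 1 and 0 without any other array. Spic, a transcription factor that haem induces in macrophages, did not stand well above background in the young kidneys. Of 10 alveolar macrophage genes none was called in lung itself (median -0.08). In kidney 8 were higher (Ear2 by 6.31 and Itgax by 4.05 on the log2 scale; median 2.82, or 2.47 with Ear1 and Siglecf at their bounds) and Atp6v0d2 was lower (-0.47), a call lost without young kidney 1 or 3 or aged kidney 2. Ear1 and Siglecf were not well above background on any young kidney, and were at least 72.9-fold (adjusted p = 6.73e-05) and 5.45-fold (adjusted p = 4.86e-05) higher in the aged. In liver 4 were higher (Itgax by 2.97, Ear2 by 2.54 and Ear1 by 2.39 on the log2 scale; median 2.34, or 1.91 with Siglecf at its bound), which became 1 without young liver 1, and Fabp1, which is also the liver fatty acid-binding protein, was lower (-1.01), lost without any young liver or aged liver 1. Siglecf, not well above background on any young liver, rose there by at least 2.90-fold (adjusted p = 0.0363), a bound of 1.53-fold without aged liver 2. WAT had 1 higher, the proton pump subunit Atp6v0d2, by 6.06 (median -0.58). Of 10 perivascular and fat macrophage genes none was called in WAT (median 0.04) or lung (median -0.04). In kidney 8 were higher (Retnla by 7.90, F13a1 by 4.89, Pf4 by 3.19, Fcna by 3.17; median 3.09), with Retnla and Fcna well above background on 1 young kidney each and F13a1 on 2, and Cd209d was lower (-0.61). In liver 4 of 9 were higher (Pf4 by 4.89, Clec10a by 3.78, Ccl24 by 1.45, Fcna by 1.01; median 1.01), which became 2, 1 and 2 without young livers 1, 2 and 3.

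**Figure D4:**
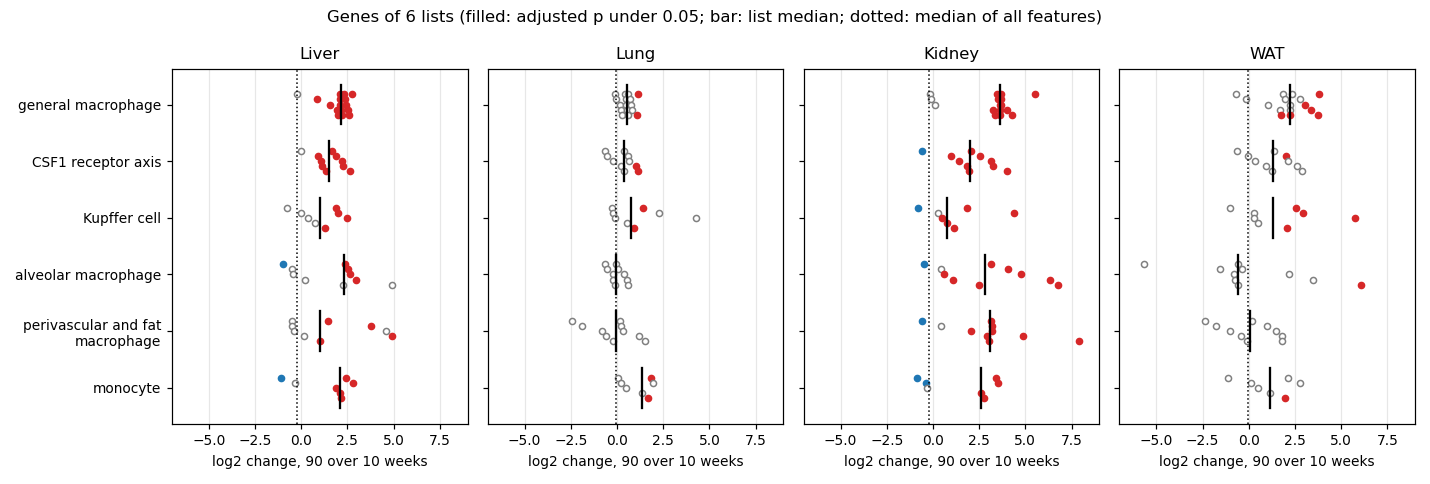
Log2 change from 10 to 90 weeks of every tested gene of 6 lists in each tissue, filled where the adjusted p was under 0.05 (red higher, blue lower), with a black bar at the list's median and a dotted line at the median of all features. In liver and kidney the bars of the general macrophage list sit at 2.15 and 3.61, right of the dotted lines, while in lung the alveolar list sits at -0.08, on the line, and genes at background in the young, such as Ear1 in kidney, are drawn at their measured change.

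Markers of other blood cells moved beside the members. Of 7 monocyte genes 5 were higher and 1 lower in liver (median 2.11), which became 1, 1 and 2 higher without young livers 1, 2 and 3. In kidney 4 were higher and 2 lower (median 2.62), in lung 2 were higher (median 1.33; 0 without young lung 1 or 2, 1 without young lung 3) and in WAT Treml4 alone (median 1.12; lost without young WAT 2 or any aged WAT). Of 5 T cell genes 3 were higher in liver, 5 in lung, 5 in kidney and 4 in WAT, the lung 5 becoming 0 without any young lung and 2 without aged lung 3, and the WAT 4 becoming 2 without any array but aged WAT 1. Of 6 B cell genes 5 were higher in kidney, with Pax5 lower, and 5 in WAT, the last becoming 3 without young WAT 1 or 3, 0 without young WAT 2 or aged WAT 1 and 1 without aged WAT 2 or 3. In liver 1 B cell gene was higher, lost without any array but aged liver 2, and in lung none. Neutrophil genes had 3 of 5 higher in kidney and none of 5 called in WAT. Ngp alone of 6 was higher in liver and in lung, a count that became 0 without any young array of that tissue. It became 6 without aged liver 2, 3 without aged liver 4 and 3 without aged lung 2. Ngp was not well above background on any young liver, so there it passed the filter through the aged arrays alone.

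The lists for the fixed cells of the organs had few calls outside kidney, and are given with the lowest and highest count when 1 array was left out. In kidney 20.6% of all features were higher and 42.6% lower, so counts near those shares say little about these cells. Sinusoidal endothelial genes had 1 of 6 higher in lung (0 to 2), 4 higher (3 to 4) and 2 lower (1 to 2) in kidney, and 1 higher (0 to 1) and 1 lower (0 to 0) in WAT. Oit3, counted as higher in kidney and WAT, was not well above background on any young array of either tissue. Its rise was at least 3.01-fold in kidney and 9.36-fold in WAT. Lymphatic genes had 1 of 6 higher in lung (0 to 1) and none called in WAT. Hepatocyte genes had 2 of 5 lower in liver (0 to 2), none of 4 called in lung, 1 higher and 3 lower of 4 in kidney (1 and 3 throughout) and 2 of 4 lower in WAT (0 to 1). Cps1 in kidney and Fgb and Ttr in WAT, all counted as lower, were not well above background on any aged array of that tissue. Kidney epithelial genes had 3 of 5 lower in kidney (2 to 3), with Slc34a1 at -1.24, Slc12a1 at -1.21 and Umod at -1.03. In that list 1 was also higher in kidney (0 to 1), 1 of 3 lower in liver (0 to 1) and none called in lung or WAT. Lung epithelial genes had none called in lung, liver or WAT, and 1 higher (1 to 1) and 2 lower (1 to 2) of 3 in kidney. Adipocyte genes had none of 5 called in WAT, 2 of 3 lower in liver (1 to 2), 2 of 5 lower in lung (0 to 3), and 2 higher (0 to 3) and 2 lower (1 to 2) of 5 in kidney. The part of these cells in the members' changes was not tested.

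The 3 genes whose levels followed each member most closely over the 24 arrays were listed as a description. By Pearson's r among 19065 features, which share tissue, slide and age as sources of spread, Adgre1 was nearest to Slc11a1 (0.979), Unc93b1 (0.978) and C1qc (0.959), and Csf1r to Adgre1 (0.938), C1qb (0.922) and Gm6377 (0.919). Cd5l was nearest to Vsig4 (0.956), Bach2os (0.945) and Spic (0.931), and Mrc1 to Ccl9 (0.971), Hpse (0.966) and Slc9a9 (0.965). Clec4f, bright in every liver array, was nearest to Cyp3a57 (0.950), Fetub (0.945) and Apol9b (0.943), and Timd4 to Agmo (0.899), Trafd1 (0.892) and Apoc1 (0.891). Marco was nearest to Fpr1 (0.883), Nop53 (0.882) and S1pr5 (0.877), and Cd163 to Tpst1 (0.946), Adam23 (0.934) and Bche (0.933). Lyve1 was nearest to Bnip2 (0.971), Gata6 (0.965) and Nod1 (0.956), and Folr2 to Alg8 (0.910), Engase (0.902) and Ctsb (0.893). Among the members themselves Mrc1 and Cd163 were close (0.912), as were Adgre1 and Mrc1 (0.891), whereas Folr2 and Lyve1, both used as markers of perivascular macrophages, were not (0.039). Clec4f was not well above background on any kidney, WAT or young lung array, and Lyve1 and Timd4 on no young kidney. The r values of these members, with the 0.039, take in such signals.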

How the data were processed

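Total RNA from each tissue was prepared with an RNeasy kit, labelled with Cy3 by Quick Amp labelling and hybridised to an Agilent mouse gene expression array on mm9 (the study's methods name a human kit, but the array design in the file headers is the mouse one). The authors deposited scanner output made with Agilent Feature Extraction 11.0.1.1. Its processed signal is an intensity that the software had already background-subtracted, and it is the deposited unit used here. The number of arrays limits the precision.

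From these intensities, outlier-flagged spots (1841 over 24 arrays) and control spots were left out, spots of a probe were averaged, log2 was taken and each array's 75th percentile was subtracted. Of 56605 probes, 32994 (58.3%) matched a RefSeq symbol through their accession without version. A probe was tested in a tissue when it was well above background on at least 3 of 6 arrays, and each gene was read from its brightest such probe. A gene not well above background on any array of a group has its fold given as a bound against the dimmest signals above background. Such a bound is taken on the group means and does not include the spread between samples. Ages were compared with limma 3.58.1 in R 4.3.3 (the package data.table, version 1.17.8), with Benjamini-Hochberg adjustment over the features of the tissue and a threshold of 0.05. A single model of all 24 arrays tested the difference between tissues (an F test and 6 pairwise contrasts), and a fit of each feature's log2 difference from Csf1r tested unequal change. The code was tested on simulated data. Replicates are samples that the labels number separately, and p-values measure only the spread between these samples.

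The members and the 15 marker lists (general macrophage, CSF1 receptor axis, Kupffer cell, alveolar macrophage, perivascular and fat macrophage, monocyte, lymphatic endothelial, liver sinusoidal endothelial, B cell, T cell, neutrophil, hepatocyte, kidney epithelial, lung epithelial and adipocyte genes) were chosen with earlier results of these data known. They are described by counts and medians. Named are all members, at most the 4 called genes with the largest change in each direction of a list together with defining markers, and the 3 genes most like each member. The ligand genes Csf1 and Il34 were named for their role after their values were seen. Alternatives were normexp background correction (offset 16), quantile normalization, scaling to the 350 spike-in spots, no filter, averaging the probes of a gene, a joint fit of the 24 arrays, blocking on the replicate number, the methods' t-test, another reference than Csf1r and leaving out each array.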

Additional observations from a re-analysis of the deposited data

Results flagged for a closer look

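The change with age differed between the 4 tissues for 5 of the 10 members, by the F test of the age-by-tissue terms in limma over 24 arrays with adjustment over 34154 features, of which 31.2% passed. The adjusted p was 4.42e-05 for Mrc1, 0.000860 for Lyve1, 0.00394 for Cd163, 0.00787 for Adgre1 and 0.0133 for Clec4f. Without Lyve1 and Clec4f, which rest in part on signals at background, the count would lie near the share of all features. Mrc1 and Cd163 rose by 4.07 and 3.53 in kidney, where all 3 aged arrays were above all 3 young ones, and their changes in lung were 0.15 and -0.46. Lyve1 rose at least 4.08-fold in kidney, where no young array was well above background, and its change in lung was 0.93. Adgre1 changed by 0.81 in lung, 2.54 in liver, 3.18 in WAT and 3.79 in kidney. For Clec4f the kidney and WAT signals were at background and all 3 young lungs were too, so its F test compares values that are not well above background on all 12 kidney and WAT arrays and on the 3 young lungs. Each tissue had its own slide, and tissue and slide cannot be told apart.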

How the results depend on the processing

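Across alternatives other than leaving out an array, 133 of 150 values of called members stayed past the threshold in the same direction, as did 80 of 90 with 1 array left out, and 0 reversed. Scaling to the spike-in spots would move every change by 0.16 in liver, -0.16 in lung, 0.35 in kidney and 0.00 in WAT, and under it the lung change of Mrc1 became -0.0068. With all 24 arrays in 1 fit, 4 members were higher in liver, 2 in lung and 4 in WAT, and 0 were lower in kidney. The share of all features called was not computed for this or the other alternatives. The replicate block left 2 members higher in liver and 0 in WAT, and 1 changed relative to Csf1r in WAT. In liver young 3 and aged 4 share a number with no other array, so the block estimate there rests on the arrays numbered 1 and 2 alone. With the block Cd163 in liver became -0.57, and relative to Csf1r Lyve1 in liver became 0.18 and Marco in liver -0.082. Whether samples with the same number share anything more is not stated in the labels. Their deviations correlated at -0.09 to 0.06 in liver, -0.17 to -0.06 in lung, 0.03 to 0.10 in kidney and -0.07 to 0.18 in WAT. Each array correlated best with its own number in 6 of 6 kidney, 2 of 6 liver, 0 of 6 lung and 2 of 6 WAT arrays. With 3 arrays a group, these small correlations cannot settle it. Across tissues the block's consensus correlation was 0.0166.

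The methods' t-test after adjustment found 3 members higher in liver, 0 in WAT (3 unadjusted), and 0 changed relative to Csf1r in lung and in WAT. Without the filter on dim probes 0 were higher in WAT and 2 changed relative to Csf1r there. With the mean of a gene's probes 0 were higher in WAT, 1 changed relative to Csf1r in liver, and Cd163 in liver became -0.24. Relative to Csf1r that setting gave 0.48 for Cd5l, 0.30 for Clec4f, 0.37 for Folr2 and 0.72 for Lyve1 in liver, 0.28 for Marco in kidney and 0.16 for Folr2 in WAT. The dimmer Csf1r probe as the reference, chosen after seeing the data, gave 5 changed members in liver and 2 in WAT. It turned Cd5l to 1.27, Clec4f to 1.1, Folr2 to 1.17, Lyve1 to 1.52, Mrc1 to 0.71 and Timd4 to 0.71 in liver, Marco to 0.75 in kidney and Folr2 to 0.47 in WAT. The mean of the 16 general genes as reference gave -0.44 for Mrc1 in WAT. The difference between tissues was lost for Lyve1 with normexp (adjusted p = 0.132) and for Cd163 with the mean of probes (adjusted p = 0.119). The causes were not tested.

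With 1 array left out, members higher ranged from 5 to 9 in liver, 0 to 1 in lung, 6 to 6 in kidney and 0 to 0 in WAT, and members lower in lung from 0 to 1. Members changed relative to Csf1r ranged from 1 to 5 in liver and 1 to 5 in WAT, and members that differed between tissues from 3 to 7. Changes that reversed ranged from -0.59 to 0.75 for Cd163 in liver, -2.92 to 0.13 for Folr2, -0.13 to 0.35 for Mrc1 and -1.10 to 1.60 for Timd4 in lung, -0.43 to 1.84 for Marco in kidney and -0.24 to 0.65 for Lyve1 in WAT. Relative to Csf1r they ranged from -0.58 to 1.42 for Marco, -0.43 to 0.38 for Lyve1 and -0.63 to 0.051 for Cd5l in liver, -1.19 to 0.74 for Timd4 and -0.10 to 0.70 for Lyve1 in lung, and -1.50 to 0.67 for Marco in kidney. The slide as a block was not run, since each tissue has 1 slide. Signals near background limit the size of the changes of Clec4f in lung and of Lyve1, Cd5l and Cd163 in kidney.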
